A study of Mus musculus with 16 samples.

Results

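RNA of cortical synaptosomes was compared between 5 months and 3 weeks of age, which are adult and juvenile ages of the mouse. The comparison takes the 4 libraries labelled 5 months SYN and the 4 labelled 3 weeks SYN, 8 of the 16 samples of the series, and every gene of the count table. Synaptosomes (SYN) are pinched-off and resealed nerve terminals with adhering postsynaptic membrane, prepared by cell fractionation. All mice were of the strain C57BL/6, both groups came from the cerebral cortex, and the groups differ in age alone as labelled. The labels name 4 biological replicates per age, without sex or the number of animals behind each preparation. Of 48709 genes in the table, 15344 had enough counts to be tested.

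A synapse carries mRNA on both sides of its cleft. Transcripts are moved along microtubules into dendrites and axons and are translated close to the contacts they supply. Between weaning and adulthood the rodent cortex completes axon outgrowth, prunes and stabilises its contacts, wraps axons in myelin and assembles a matrix around neurons. A synaptosome fraction is not pure: it also takes up fragments of astrocyte processes, myelin membranes, free mitochondria and some nuclei, so its RNA reports on all of these. In such bulk libraries fewer cells of a type, less RNA per cell and a smaller uptake of its fragments cannot be told apart.

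Each of the 8 libraries held 13338701 to 21719869 counts, and 7.74 to 11.05 megacounts per library lay outside the mitochondrial genome. The mitochondrial rRNAs took 39.3% ± 4.24 of the counts at 5 months and 46.96% ± 4.00 at 3 weeks (mean ± SD, n = 4), a difference of -7.65 percentage points that did not pass a two-sided exact permutation test (p = 0.0857). The first principal component, with 37.7% of the variance, separated the ages, and the second, with 15.6%, set 5 months replicate 4 apart from the other libraries. In that library 5 nuclear RNA markers, Malat1 among them, summed to 5604 CPM (counts-per-million of the scaled library), against 561 to 822 CPM at 3 weeks and 1184 to 1719 CPM in the other 5 months libraries. Its endothelial markers summed to 28.6 CPM against 7.79 to 13.4 CPM elsewhere. The fraction was neuronal and glial by its markers, and no marker of the 10 lists examined was at 0 in all 8 libraries. Neuronal markers summed to 3804 to 4232 CPM at 5 months and to 3130 to 3832 CPM at 3 weeks, and astrocyte markers to 5707 to 6569 and 5758 to 8437 CPM.

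Between 3 weeks and 5 months most called genes of myelin-forming cells were lower, and so was every called gene of axon growth, the cell cycle and cholesterol synthesis. Most called genes of postsynaptic scaffolds, dendritically carried mRNAs and clustered protocadherins were higher, as was every called microglial gene. By edgeR's quasi-likelihood test at an adjusted p under 0.05, 2035 genes were higher at 5 months (13.3% of those tested) and 1738 lower (11.3%), together 24.6%. These shares are the background for each list below, and the median log2 fold change of all genes was 9.69e-05. Without 5 months replicate 4, 1666 of the 2035 and 1397 of the 1738 were called the same way and 0 the opposite way. Fewer genes passed a stricter test: 186 were higher and 169 lower when a fold above 1.5 was tested for. Log2 fold changes are 5 months minus 3 weeks from the fit, given with ± their standard error where an adjusted p follows, and levels are CPM, which are not compared between genes. A pair of levels joined by "against" gives 5 months first and 3 weeks second, each as mean ± SD over 4 libraries.

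**Figure D1:**
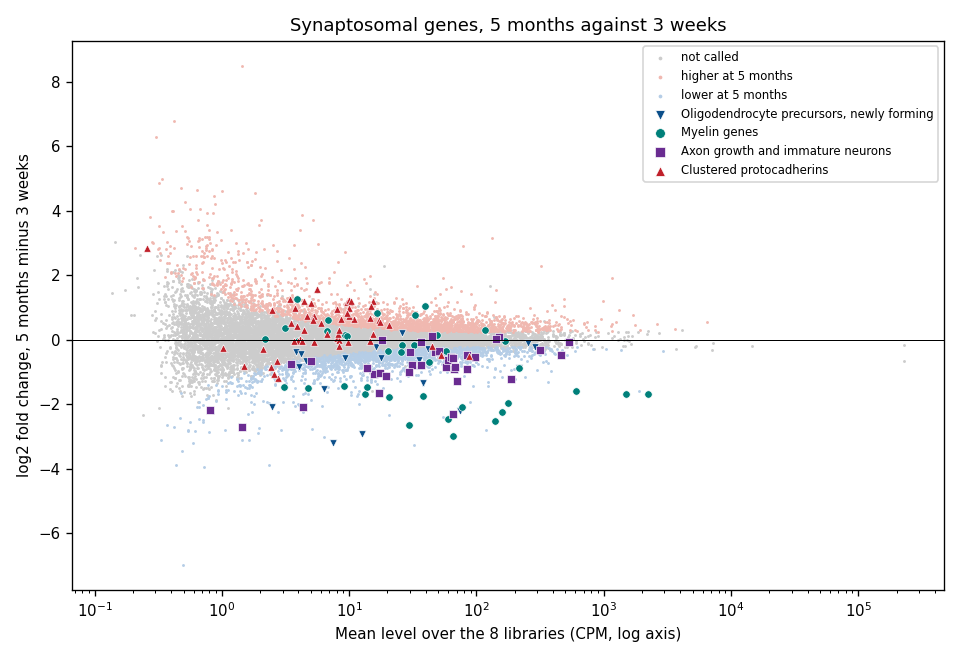
Each point is one of the 15344 genes tested, placed by its mean level over the 8 libraries (CPM, log axis) and by its log2 fold change, 5 months minus 3 weeks. Grey points were not called, pale red and pale blue points were higher and lower at an adjusted p under 0.05, and members of 4 gene lists are drawn in their own colours. Oligodendrocyte and axon growth genes lie mostly below 0, clustered protocadherins mostly above.

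Oligodendrocytes wrap axons in myelin. They arise from dividing precursors through a short-lived premyelinating stage. Of 38 myelin genes, 20 fell and 6 rose, with a median log2 fold change of -0.54. Of 22 genes of precursors and newly forming oligodendrocytes, 15 fell and 0 rose, with a median of -0.66. All 7 oligodendrocyte markers fell, and their summed level was 1920 to 2398 CPM at 5 months against 6136 to 8606 CPM at 3 weeks. All 6 markers on the precursor list fell too, and their summed level was 114 to 129 CPM at 5 months against 288 to 331 CPM at 3 weeks. Beside the precursor genes Pdgfra and Cspg4 this marker list holds Olig1, Olig2 and the later-stage genes Gpr17 and Enpp6. The same counts, 20 and 15, fell without 5 months replicate 4.

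Structural genes of the sheath were among those that fell. Cnp encodes an enzyme of the non-compact myelin channels (ENSMUSG00000006782, chromosome 11, 100574904 to 100591729). It lay at 46.1, 62.99, 56.8 and 53.5 CPM in the 5 months replicates 1 to 4 and at 211, 262, 305 and 273 CPM in the 3 weeks replicates (log2 fold change -2.26 ± 0.114, adjusted p = 5.74e-14). The groups lie far apart, with every adult library below every juvenile one. Mag, the myelin-associated glycoprotein of the membrane next to the axon, stood at 35.2, 44.99, 47.6 and 36.3 CPM at 5 months and 174, 256, 262 and 261 CPM at 3 weeks (log2 fold change -2.54 ± 0.181, adjusted p = 6.98e-08). Mbp, the myelin basic protein whose mRNA is itself transported to the sheath, stood at 702 ± 85.1 against 2286 ± 408 CPM (log2 fold change -1.70). Cldn11, the tight junction protein of the sheath, had 14.8 ± 2.26 against 117 ± 34.6 CPM (log2 fold change -2.98), Mog, a glycoprotein of its outer surface, had 8.01 ± 2.34 against 50.8 ± 12.9 CPM (log2 fold change -2.66), and Ugt8a, the enzyme of galactosylceramide synthesis, had 18.4 ± 3.04 against 102 ± 29.1 CPM (log2 fold change -2.47). In these 3 genes too the groups did not overlap. Gsn, the actin-severing gelsolin, fell from 149, 216, 233 and 236 CPM at 3 weeks to 27.2, 31.4, 32.5 and 28.1 CPM at 5 months (log2 fold change -2.81). It is on the list of spine actin regulators and not on the myelin list.

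Genes of the premyelinating stage fell too. Rnf122, a ubiquitin ligase on this list, stood at 1.56, 0.961, 1.41 and 1.87 CPM at 5 months and 10.5, 13.6, 16.1 and 14.1 CPM at 3 weeks (log2 fold change -3.21 ± 0.234, adjusted p = 1.36e-10). Enpp6, a choline phosphodiesterase of newly forming oligodendrocytes, stood at 2.57, 3.14, 1.27 and 4.56 CPM at 5 months and 16.5, 23.9, 26.9 and 22.5 CPM at 3 weeks (log2 fold change -2.93 ± 0.272, adjusted p = 1.19e-07). Gpr17, the receptor that marks cells about to mature, stood at 25.99 ± 2.51 against 122 ± 17.1 CPM (log2 fold change -2.23). The lineage transcription factor Olig1 had 21.6 ± 1.02 against 55.1 ± 3.75 CPM (log2 fold change -1.35). Among genes of the precursors themselves the log2 fold change was -0.58 for the proteoglycan Cspg4 (adjusted p = 0.00706), which is also on the endothelial and mural list, and -0.43 for the growth factor receptor Pdgfra (adjusted p = 0.00534).

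A minority of myelin genes moved the other way. Qdpr, which regenerates tetrahydrobiopterin, stood at 46.9, 53.96, 53.6 and 58.3 CPM at 5 months and 21.6, 25.7, 30.7 and 24.1 CPM at 3 weeks (log2 fold change 1.06 ± 0.115, adjusted p = 1.38e-07). Anln, a septin-binding protein of mature myelin, stood at 21.3 ± 1.96 against 11.9 ± 2.13 CPM (log2 fold change 0.83). Ndrg1, whose loss causes a demyelinating neuropathy, stood at 41.8 ± 1.72 against 24.6 ± 5.08 CPM (log2 fold change 0.76). Hapln2, a link protein of the matrix at nodes of Ranvier, stood at 5.53 ± 0.925 against 2.27 ± 0.721 CPM (log2 fold change 1.27). In each of these the lowest adult library was above the highest juvenile one. The fall was thus not shared by every gene of the sheath.

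**Figure D2:**
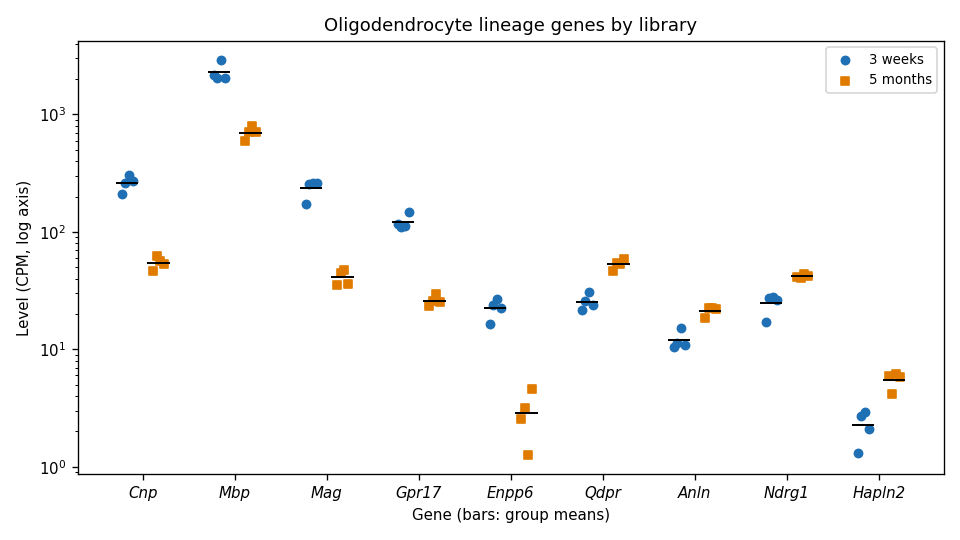
Levels (CPM, log axis) of 9 oligodendrocyte lineage genes in each of the 8 libraries. Blue circles are the 4 libraries of 3 weeks, orange squares the 4 of 5 months, and bars are group means. Cnp, Mbp, Mag, Gpr17 and Enpp6 are lower in every 5 months library, Qdpr, Anln, Ndrg1 and Hapln2 higher.

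Splicing was read from the authors' deposited tables, which give no value per library. They name the ages young and adult, taken here as 3 weeks and 5 months. In the authors' deposited table of LeafCutter, a program that tests the usage of introns sharing a splice site, 281 of 4250 clusters had an adjusted p under 0.05 (6.61%), and 195 of these held an intron whose usage changed by at least 0.1. The 8 genes with the smallest adjusted p in the authors' deposited table were Rims1, Bcas1, Mbp, Nfasc, Apc, Ttc3, Map4k4 and Mag. Of these, Bcas1, Mbp and Mag are on the myelin list. Of 244 tested genes with a called cluster, 66 were higher and 38 lower in level (42.6% called), against 36.2% of 2216 genes with clusters of which none was called. In the authors' deposited table of DIEGO, another splicing program, 1399 of 94845 junctions had a q under 0.05 (1.48%). All of these share 1 q, 0.0464, the smallest in the table, and the authors marked 0 junctions as significant. Of 227 genes with a called LeafCutter cluster and DIEGO junctions, 87 also had such a junction (38.3%). Among 2120 genes with DIEGO junctions and no called LeafCutter cluster, 304 had one (14.3%). The 87 are 22.3% of the 391 genes with one. Both programs compared the same ages of this series, and the part of read depth or junction number in this overlap was not tested.

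Among the clusters are simple cassette exons, which are either spliced in or skipped. A cluster of 3 introns around an annotated exon was found 1114 times in the authors' deposited table, and 94 of these exons were called, 39 with more skipping at 5 months and 55 with less. Of the 94, 81 were coding throughout, and 69 of these had a length divisible by 3, against 924 and 720 of the 1114. The following exons are shown because they are short coding exons in genes of the myelin sheath, the axon, the synapse and astrocytes. They were chosen after their values were seen. All but the 47-base exon of Sirt2 have a length divisible by 3. Capitals are the exon and lower case is coding sequence of the exons on either side, 5′ to 3′, from the GENCODE vM21 transcripts on GRCm38:
Nfasc, 51 bases: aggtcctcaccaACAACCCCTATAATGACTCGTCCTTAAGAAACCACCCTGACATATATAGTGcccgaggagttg
Nfasc, 45 bases: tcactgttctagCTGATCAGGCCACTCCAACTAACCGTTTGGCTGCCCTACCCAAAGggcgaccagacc
Nfasc, 18 bases: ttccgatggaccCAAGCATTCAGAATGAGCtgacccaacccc
Enpp2, 75 bases: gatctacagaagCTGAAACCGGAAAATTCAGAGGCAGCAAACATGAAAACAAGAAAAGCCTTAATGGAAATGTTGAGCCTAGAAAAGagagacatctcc
Sirt2, 47 bases: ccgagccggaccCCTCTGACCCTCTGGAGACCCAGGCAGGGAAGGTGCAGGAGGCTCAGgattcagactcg
Ndrg2, 42 bases: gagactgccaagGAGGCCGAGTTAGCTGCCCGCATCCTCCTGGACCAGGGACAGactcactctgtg
Ank3, 63 bases: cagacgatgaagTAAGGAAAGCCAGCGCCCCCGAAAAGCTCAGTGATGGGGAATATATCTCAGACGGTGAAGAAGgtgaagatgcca
Grin1, 63 bases: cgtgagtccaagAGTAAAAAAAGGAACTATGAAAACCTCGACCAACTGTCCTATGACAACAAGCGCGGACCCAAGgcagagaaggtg
Unc13a, 57 bases: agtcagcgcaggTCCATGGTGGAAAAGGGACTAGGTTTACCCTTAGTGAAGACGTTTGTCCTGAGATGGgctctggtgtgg
Dnm2, 30 bases: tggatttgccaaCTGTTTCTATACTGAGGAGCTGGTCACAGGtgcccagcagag
Picalm, 24 bases: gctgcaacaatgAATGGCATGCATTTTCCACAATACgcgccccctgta

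Neurofascin (Nfasc) is an adhesion molecule with a glial form at the paranodal junctions of myelin and a neuronal form at nodes and axon initial segments. All 6 of its clusters were called in the authors' deposited table. Skipping of the 51-base exon (chr1:132627872-132627922, minus strand) went from 0.412 at 3 weeks to 0.972 at 5 months as a fraction of the cluster's splices in the authors' deposited table (adjusted p = 2.19e-08). Skipping of the 45-base exon (chr1:132607003-132607047) went the other way, from 0.625 at 3 weeks to 0.071 at 5 months, and that of the 18-base exon (chr1:132637864-132637881) from 0.854 at 3 weeks to 0.371 at 5 months. At 5 months the longest of the 3 was thus almost always left out and the 45-base exon mostly kept in, in the authors' fits. Over the same interval the level of Nfasc fell from 413, 531, 551 and 595 CPM at 3 weeks to 199.6, 219, 211 and 212 CPM at 5 months (log2 fold change -1.31 ± 0.101, adjusted p = 3.28e-10).

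Exon usage also differed in other genes known from the sheath and in the astrocyte gene Ndrg2. Mag has a large form, made early in myelination, and a small form, made later, set by an exon that carries a stop codon. Skipping of the 45-base exon near its 3′ end (chr7:30900352-30900396, partly coding) fell from 0.702 at 3 weeks to 0.171 at 5 months in the authors' deposited table (adjusted p = 3.05e-06), while a 53-base noncoding exon was skipped more, 0.431 at 3 weeks to 0.873 at 5 months. The 78-base coding exon of Mbp (chr18:82561778-82561855) is part of forms known from young oligodendrocytes. Its skipping rose from 0.585 at 3 weeks to 0.824 at 5 months in the authors' deposited table (adjusted p = 1.91e-08). Enpp2, the secreted lysophospholipase autotaxin, skipped its 75-base exon (chr15:54851348-54851422) more, from 0.412 at 3 weeks to 0.831 at 5 months in the authors' deposited table. Sirt2, a tubulin deacetylase of the sheath, skipped its 47-base exon (chr7:28767632-28767678) less, from 0.74 at 3 weeks to 0.36 at 5 months in the authors' deposited table, and fell in level (37.3 ± 2.5 against 141 ± 19.7 CPM, log2 fold change -1.92). Ndrg2, an astrocyte protein, skipped its 42-base exon (chr14:51911086-51911127) less, from 0.619 at 3 weeks to 0.433 at 5 months in the authors' deposited table. The summed oligodendrocyte markers fell at the same time, and their part in these usages was not tested.

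Exons of synaptic and axonal genes were called as well. The 63-base exon of Grin1 (chr2:25311343-25311405) encodes an insert in the extracellular domain of the obligatory NMDA receptor subunit that alters its block by protons. It was skipped less, from 0.727 at 3 weeks to 0.572 at 5 months in the authors' deposited table (adjusted p = 0.0123). Unc13a, the vesicle priming factor, kept its 57-base exon (chr8:71633439-71633495) in more often, with skipping from 0.871 at 3 weeks to 0.66 at 5 months in the authors' deposited table. The endocytic genes Dnm2 (chr9:21487047-21487076; 0.905 at 3 weeks to 0.709 at 5 months) and Picalm (chr7:90194273-90194296; 0.535 at 3 weeks to 0.312 at 5 months) moved the same way in the authors' deposited table. Ank3, the ankyrin of the axon initial segment, skipped its 63-base exon (chr10:69904448-69904510) more, from 0.558 at 3 weeks to 0.874 at 5 months. Of these 5 genes only Unc13a and Picalm changed in level, with log2 fold changes of -0.27 and -0.54. Grin1 stood at 442 ± 46.7 against 489 ± 83.2 CPM (adjusted p = 0.38), Ank3 at 824 ± 72.05 against 739.8 ± 28.5 CPM (adjusted p = 0.249), and Dnm2 at 28.6 ± 4.79 against 35.3 ± 4.88 CPM (adjusted p = 0.0792). Dnm2 was called lower without 5 months replicate 4 (log2 fold change -0.37, adjusted p = 0.0479) or 3 weeks replicate 2, and Grin1 without 3 weeks replicate 1 (adjusted p = 0.042).

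**Figure D3:**
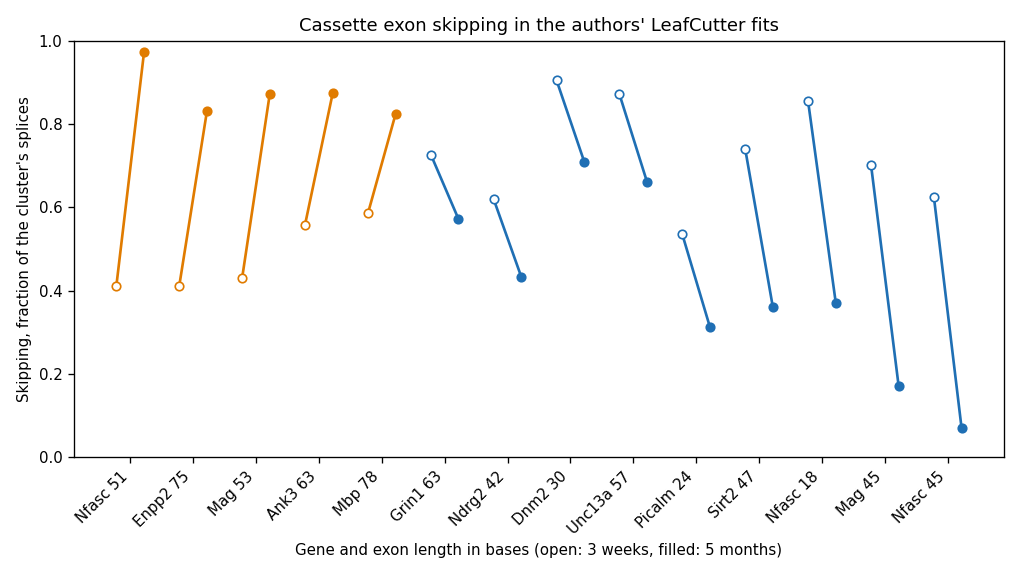
Share of a cluster's splices that skip the cassette exon at 3 weeks (left ends) and 5 months (right ends), from the authors' fits, for the 14 exons named in the text; the fits come without error per library. Lines in orange rise and lines in blue fall, so the 51-base exon of Nfasc goes from 0.412 to 0.972 while its 45-base exon goes from 0.625 to 0.071.

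Growing axons are built from young tubulin isotypes and actin regulators. The list of axon growth and immature neurons had 28 of 36 members lower and 0 higher, the largest share called one way of any list examined, with a median log2 fold change of -0.78. Of 14 tubulin genes 8 fell and 1 rose, Tuba8, whose groups overlapped. Of 59 guidance ligands and receptors 14 fell and 3 rose. These counts were 26, 8 and 13 without 5 months replicate 4.

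Marcksl1, which binds actin at the growth cone membrane (ENSMUSG00000047945, chromosome 4, 129513581 to 129515985), stood at 17.1, 24.7, 22.2 and 23.6 CPM at 5 months and 135, 86.95, 99.7 and 113 CPM at 3 weeks (log2 fold change -2.31 ± 0.135, adjusted p = 4.86e-12). Its relative Marcks had 113 ± 7.15 against 262 ± 19.4 CPM (log2 fold change -1.22). Tuba1a, the alpha-tubulin of migrating and extending neurons, had 41.4, 45.9, 40.8 and 36.9 CPM at 5 months and 86.2, 102, 109 and 104 CPM at 3 weeks (log2 fold change -1.28 ± 0.0989, adjusted p = 3.28e-10). Tubb2a (log2 fold change -1.15), Tubb3 (log2 fold change -0.84) and the microtubule protein of young neurons Dcx (12.2 ± 1.61 against 26.6 ± 6.67 CPM, log2 fold change -1.12) also fell, each without overlap. Gap43, the classic growth cone protein, moved less: it stood at 38.3, 52.2, 45.5 and 43.7 CPM at 5 months and 68.98, 50.9, 54.8 and 55.8 CPM at 3 weeks (log2 fold change -0.36 ± 0.106, adjusted p = 0.014), and the groups overlapped. It was not called without 3 weeks replicate 1 or 5 months replicate 1 (edgeR adjusted p = 0.0592 and 0.0671). Among guidance genes Sema6a (50.8 ± 7.56 against 136 ± 17.5 CPM, log2 fold change -1.43), Plxnb3 (log2 fold change -1.49) and Sema4d (log2 fold change -1.05) fell. Plxnb3 and Sema4d are also made by oligodendrocytes, whose markers fell. The part of those cells in the guidance values, that of Sema6a included, was not tested. The receptor Plxnc1 (log2 fold change 0.54) and the ligand Efnb1 (log2 fold change 0.63) rose, though Efnb1 was not called without 3 weeks replicate 2 or 3. Nefh, the heavy neurofilament chain of mature axons, rose from 75.7, 61.1, 67.7 and 88.8 CPM at 3 weeks to 114, 97.9, 129 and 114 CPM at 5 months (log2 fold change 0.63 ± 0.111, adjusted p = 0.00013), while the light chain Nefl had 341 ± 26.1 against 306 ± 15.3 CPM (adjusted p = 0.181).

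Transcripts of proliferation fell from low levels. Of 43 cell cycle genes 32 passed the filter on low counts, and of these 12 fell and 0 rose (median -0.76). Mki67, the proliferation antigen, had 1.89, 1.73, 0.848 and 1.04 CPM at 5 months and 13.4, 8.96, 10.2 and 12.3 CPM at 3 weeks (log2 fold change -3.02 ± 0.274, adjusted p = 5.76e-09). Top2a, which untangles replicated DNA, had 0.708 ± 0.324 against 5.101 ± 1.29 CPM (log2 fold change -2.82), and the centromere protein Cenpf had 1.496 ± 0.592 against 7.17 ± 1.22 CPM (log2 fold change -2.25). Of 70 replication-dependent histone genes 32 passed the filter, 8 fell and 2 rose. Leaving out 5 months replicate 4, 34 passed it, 10 fell and 2 rose. The linker histone Hist1h1b was among the lower (log2 fold change -2.25). Histone gene copies share sequence and these values are uncertain.

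Regulators of DNA methylation were among the called genes. Dnmt3a, the enzyme that writes new methyl marks in postnatal neurons, stood at 70.7, 62.5, 66.1 and 66.6 CPM at 5 months and 236, 152, 175 and 163 CPM at 3 weeks (log2 fold change -1.45 ± 0.112, adjusted p = 4.24e-10). The 5-methylcytosine oxidase Tet1 had 14.5 ± 4.38 against 32.8 ± 7.01 CPM (log2 fold change -1.1780), and the replacement histone H3f3a 8.54 ± 2.11 against 18.9 ± 2.605 CPM (log2 fold change -1.15). The chromatin genes Smarca2 (log2 fold change 0.56), Hdac5 (log2 fold change 0.55) and Kmt2a (log2 fold change 0.53) rose. In all, 10 of 41 chromatin genes fell and 8 rose, or 7 and 8 without 5 months replicate 4.

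Col1a1, the main collagen of the meninges, stood at 5.88, 9.16, 3.96 and 5.23 CPM at 5 months and 35.5, 66.6, 61.7 and 72.8 CPM at 3 weeks (log2 fold change -3.29 ± 0.256, adjusted p = 3.78e-07). Col1a2 (6.69 ± 2.37 against 34.2 ± 6.06 CPM, log2 fold change -2.34) and Col3a1 (1.31 ± 0.356 against 8.95 ± 2.26 CPM, log2 fold change -2.76) fell likewise. In the list of collagens, laminins and meningeal genes 6 of 35 fell and 0 rose, or 8 and 0 without 5 months replicate 4. The 5 meningeal fibroblast markers summed to 14.3 to 24.4 CPM at 5 months and 71.5 to 126 CPM at 3 weeks, 3 of them fell, and their part in the collagen values was not tested. The perineuronal net and lectican matrix was divided, with 10 of 20 lower and 3 higher, or 7 and 3 without 5 months replicate 4. The juvenile matrix genes Tnc (3.26 ± 0.4203 against 10.1 ± 1.72 CPM, log2 fold change -1.63) and Hapln1 (9.33 ± 1.86 against 22.7 ± 3.21 CPM, log2 fold change -1.28) and the lectican-cutting protease Adamts4 (17.4 ± 1.06 against 58.5 ± 8.48 CPM, log2 fold change -1.75), which is also on the myelin list, fell. The link protein Hapln4, found at inhibitory contacts, rose from 13.3, 32.4, 28.5 and 30.3 CPM at 3 weeks to 36.3, 42.9, 53.6 and 44.6 CPM at 5 months (log2 fold change 0.76 ± 0.214, adjusted p = 0.0199).

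Cholesterol is made in the brain itself, and the growing sheath takes up most of it. Of 25 genes of its synthesis 10 fell and 0 rose (median -0.39). Without 5 months replicate 4, 8 fell, and without 3 weeks replicate 3, 6 fell. Hmgcs1, which makes the first committed intermediate (ENSMUSG00000093930, chromosome 13, 119690379 to 119708260), stood at 107, 90.6, 103 and 91.2 CPM at 5 months and 201, 238, 248 and 194 CPM at 3 weeks (log2 fold change -1.17 ± 0.0982, adjusted p = 1.31e-09). Cyp51, a later demethylase, changed less (44.6 ± 4.29 against 58.95 ± 6.198 CPM, log2 fold change -0.40).

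Of 21 glycolytic genes 8 fell and 0 rose, led by lactate dehydrogenase Ldha (22.8 ± 2.81 against 35.03 ± 6.07 CPM, log2 fold change -0.62). Only 5 fell without 5 months replicate 4. Of 76 nuclear oxidative phosphorylation genes 21 fell and 3 rose (median -0.24), with Ndufc2 (log2 fold change -0.89), Uqcrq (log2 fold change -0.67) and Cox6b1 (log2 fold change -0.60) among those that fell. Their counts were 18 and 5 without 5 months replicate 4. Proteasome subunits (10 of 33 fell, 3 rose), chaperones (11 of 31 fell, 1 rose) and lysosomal genes (10 of 30 fell, 1 rose) had medians of -0.27, -0.18 and -0.23. Leaving out 5 months replicate 4, 9 proteasome, 8 chaperone and 8 lysosomal genes fell, and 3, 1 and 1 rose. The lowest log2 fold changes were those of Psma6 (log2 fold change -0.90), the chaperonin Cct6a (log2 fold change -0.61) and the cathepsin Ctsf (log2 fold change -0.98). Genes of RNA processing and translation went both ways. Of 60 spliceosome, SR and hnRNP genes 14 rose and 7 fell, or 8 and 4 without 5 months replicate 4. Of 61 translation factors 7 rose and 7 fell, or 7 and 5 without that library. Of 78 cytosolic ribosomal protein genes, which share reads with pseudogenes, 10 rose and 6 fell. Of the 80 tested without that library, 9 rose and 3 fell. Of the 13 mRNAs of the mitochondrial genome only mt-Nd6, the one encoded on the light strand, was called (629 ± 97.1 against 403 ± 30.4 CPM, log2 fold change 0.64 ± 0.169, adjusted p = 0.0115). It was not called without 3 weeks replicate 1 or 2. The strand setting of the counts is unknown here, so mt-Nd6 and transcripts of the opposite strand cannot be told apart.

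**Figure D4:**
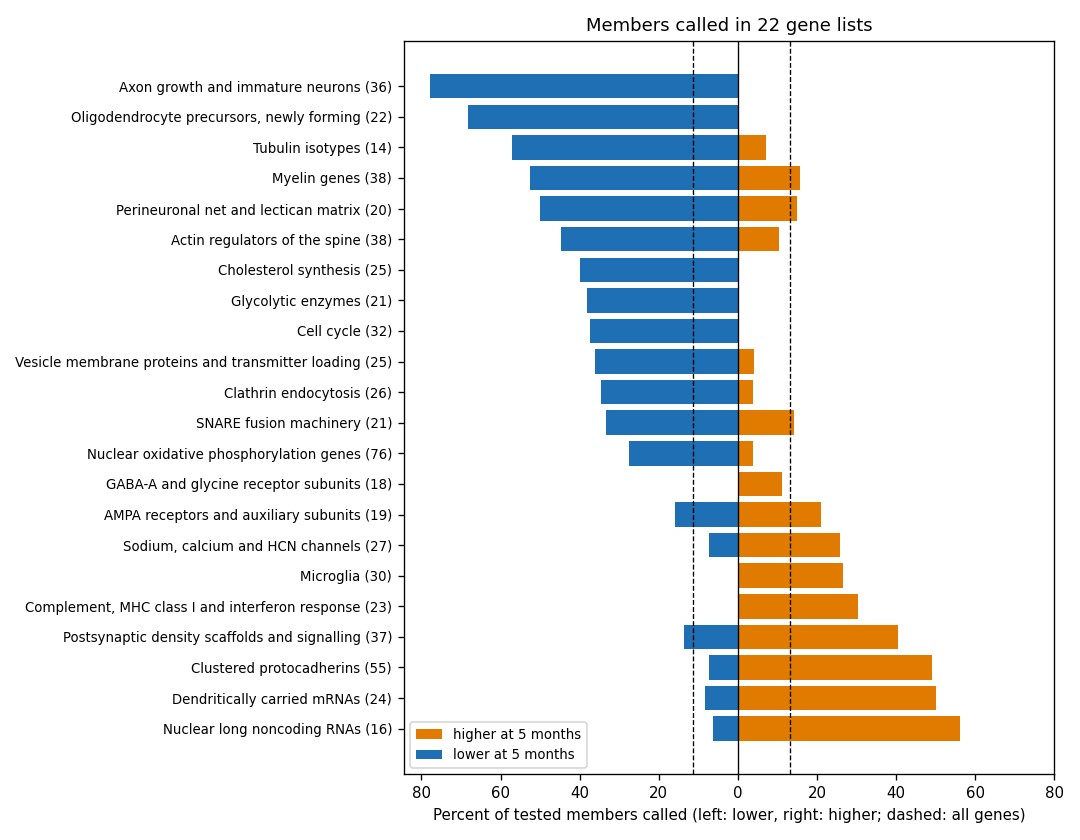
Percent of the tested members of 22 gene lists that were called higher (orange, to the right) or lower (blue, to the left) at 5 months, with the number of tested members in brackets. Dashed lines mark the shares over all genes tested, 13.3% higher and 11.3% lower; axon growth genes have the longest bar to the left and nuclear long noncoding RNAs the longest to the right.

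The postsynaptic density is the protein lattice under excitatory synapses that ties receptors to scaffolds and enzymes. Of 37 tested gene entries on this list, 15 rose and 5 fell (median 0.13); without 5 months replicate 4, 17 rose and 4 fell. Shank1, the deep-lying master scaffold, stood at 2006, 2363, 2295 and 1851 CPM at 5 months and 1250.2, 1242, 1236 and 1273 CPM at 3 weeks (log2 fold change 0.77 ± 0.102, adjusted p = 3.22e-06). Sipa1l1, a Rap GTPase activator of spines, had 603 ± 51.1 against 369.6 ± 13.3 CPM (log2 fold change 0.71) and Cnksr2, a scaffold of Ras signalling, 649 ± 46.7 against 439 ± 39.01 CPM (log2 fold change 0.56). In these 3 the groups did not overlap. The calmodulin-binding Nrgn fell, with 289, 247, 252 and 251 CPM at 5 months and 450.4, 509, 544 and 521 CPM at 3 weeks (log2 fold change -0.96 ± 0.0881, adjusted p = 6.87e-09). The actin-bending Baiap2 (97.4 ± 8.99 against 153 ± 23.3 CPM, log2 fold change -0.66) fell too. Dlg4, the PSD-95 scaffold, stood at 514 ± 34.2 against 520.00 ± 50.8 CPM (log2 fold change -0.02 ± 0.0875, adjusted p = 0.911).

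Of 24 mRNAs known to be carried into dendrites 12 rose and 2 fell (median 0.28), or 11 and 2 without 5 months replicate 4. Itpr1, the calcium release channel of the endoplasmic reticulum (ENSMUSG00000030102, chromosome 6, 108213096 to 108551109), stood at 1547, 1289.7, 1449 and 1249 CPM at 5 months and 540.1, 604, 628 and 655 CPM at 3 weeks (log2 fold change 1.19 ± 0.1, adjusted p = 1.34e-09). Each adult library was above each juvenile one. Ppp1r9b, the spine protein spinophilin, had 1837, 1709, 1769.9 and 1583 CPM at 5 months and 1101, 734, 821 and 1028 CPM at 3 weeks (log2 fold change 0.91 ± 0.111, adjusted p = 9.03e-07). Adcy1, the calcium-stimulated adenylyl cyclase, had 1346 ± 148 against 959.8 ± 36.5 CPM (log2 fold change 0.49). Camk2a, the kinase of synaptic plasticity, rose a little, from 3652, 2909, 3067 and 3153 CPM at 3 weeks to 4400.3, 4078, 4125 and 3525 CPM at 5 months (log2 fold change 0.34 ± 0.1001, adjusted p = 0.0146), with overlap of the groups. It was not called without 3 weeks replicate 3 or 5 months replicate 1 (edgeR adjusted p = 0.0579 and 0.0523). Of 38 actin regulators of the spine 17 fell and 4 rose (median -0.18), or 16 and 4 without 5 months replicate 4. Gsn, described above beside the sheath genes, fell the most, and the part of oligodendrocytes in its fall was not tested. Beta-actin itself was among the lower (Actb, 399 ± 7.69 against 562 ± 17.4 CPM, log2 fold change -0.49).

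Over all genes 24.6% were called, and the receptor lists lay on both sides of this share. For AMPA receptors and their auxiliary subunits 4 of 19 rose and 3 fell. Of 6 NMDA receptor subunits 1 fell and 0 rose, of 7 kainate genes 1 fell, of 7 metabotropic genes 0 were called, and of 18 GABA-A and glycine receptor subunits 2 rose and 0 fell. Without 5 months replicate 4, 1 metabotropic gene rose and 2 GABA-A and glycine subunits fell. Grin3a, a juvenile NMDA receptor subunit that limits calcium entry, fell from 43.3, 55.5, 47.6 and 48.5 CPM at 3 weeks to 30.4, 41.3, 32.4 and 28.6 CPM at 5 months (log2 fold change -0.56 ± 0.1101, adjusted p = 0.000471). Grin2b stood at 1433, 1585, 1664 and 1424 CPM at 5 months and 1337, 1725, 1513 and 1540.4 CPM at 3 weeks (log2 fold change -0.0022 ± 0.0974, adjusted p = 0.993) and Grin2a at 507 ± 35.6 against 446 ± 62.4 CPM (log2 fold change 0.18 ± 0.0975, adjusted p = 0.181). These subunits are known to exchange in early postnatal life. For the GABA-A subunit Gabra5 (35.96 ± 4.58 against 38.99 ± 6.99 CPM, adjusted p = 0.541) the groups overlapped. The chloride importer Slc12a2 fell (44.7 ± 8.41 against 64.9 ± 13.9 CPM, log2 fold change -0.54), but it was not called with all 16 libraries in the fit (adjusted p = 0.126), and the exporter Slc12a5 stood at 339 ± 30.1 against 309.7 ± 61.6 CPM (adjusted p = 0.471). Gad1, the GABA-synthesising enzyme, rose from 58.8, 68.9, 61.2 and 68.3 CPM at 3 weeks to 87.97, 98.7, 95.1 and 74.5 CPM at 5 months (log2 fold change 0.47 ± 0.0967, adjusted p = 0.000724).

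Of 25 genes of vesicle membrane and transmitter loading 9 fell and 1 rose, or 8 and 1 without 5 months replicate 4. Syn1, which tethers vesicles, stood at 185, 178, 178 and 173 CPM at 5 months and 238, 291, 277 and 269 CPM at 3 weeks (log2 fold change -0.59 ± 0.0827, adjusted p = 6.67e-06). The vesicle GTPase Rab3a (95.4 ± 6.199 against 146 ± 7.06 CPM, log2 fold change -0.62) fell alongside, and the vesicle protein Sv2c rose (80.9 ± 6.99 against 48.3 ± 5.28 CPM, log2 fold change 0.74). Of 21 SNARE genes 7 fell and 3 rose: the plasma membrane syntaxin Stx1a had 76.3 ± 6.699 against 122 ± 10.6 CPM (log2 fold change -0.68), while the complexin Cplx1, a clamp of fusion, had 216 ± 12.6 against 162 ± 23.6 CPM (log2 fold change 0.42). Leaving out 5 months replicate 4, 6 SNARE genes fell and 3 rose. Of 26 clathrin genes 9 fell and 1 rose, or 10 and 1 without that library. Of 22 active zone genes 4 rose and 2 fell, or 4 and 1 without that library. Rims3, a small relative of the RIM scaffolds, had 104, 91.9, 107 and 83.8 CPM at 5 months and 38.9, 43.4, 45.2 and 46.3 CPM at 3 weeks (log2 fold change 1.15 ± 0.0963, adjusted p = 1.31e-09), and Pclo, the giant scaffold Piccolo, 2038 ± 198 against 1486 ± 30.5 CPM (log2 fold change 0.46).

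Of 27 sodium, calcium and HCN channel genes 7 rose and 2 fell, or 8 and 2 without 5 months replicate 4. Of 59 potassium channel genes 11 rose and 8 fell, or 13 and 8 without it. Hcn2, a pacemaker channel, stood at 158, 188, 177 and 156 CPM at 5 months and 79.1, 107, 97.8 and 118 CPM at 3 weeks (log2 fold change 0.76 ± 0.123, adjusted p = 7.6e-05). Scn8a, the sodium channel of adult nodes and initial segments, stood at 835, 868, 884 and 697 CPM at 5 months and 471, 595, 609 and 653 CPM at 3 weeks (log2 fold change 0.50 ± 0.108, adjusted p = 0.00123). Kcna2 (435 ± 22.5 against 307 ± 25.9 CPM, log2 fold change 0.50), the juxtaparanodal potassium channel, and its partners Kcnab2 (log2 fold change 0.56) and Kcnab3 (16.4 ± 1.099 against 9.14 ± 0.806 CPM, log2 fold change 0.84) rose. Kcnc1, a channel of fast-spiking cells, had 189 ± 19.5 against 132 ± 21.6 CPM (log2 fold change 0.52). The activity-linked genes Fosb (16.7 ± 2.42 against 6.88 ± 1.22 CPM, log2 fold change 1.28), Nr4a3 (log2 fold change 0.81) and Nr4a2 (log2 fold change 0.72) rose with 7 others of 30, and 3 fell. Of 21 clock genes 4 rose and 0 fell, with Per1 from 43.4, 27.1, 31.4 and 48.9 CPM at 3 weeks to 51.2, 66.2, 61.4 and 60.6 CPM at 5 months (log2 fold change 0.67).

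Clustered protocadherins are cell surface proteins chosen in combinations that give each neuron an identity. Of 55 tested entries 27 rose and 4 fell (median 0.50), and without 5 months replicate 4 the counts were 23 and 3. The genes lie in 3 arrays whose members overlap and resemble each other, so counts could be split between neighbours. Pcdhb2 had 5.82, 9.23, 12.1 and 6.22 CPM at 5 months and 2.503, 3.23, 2.73 and 2.697 CPM at 3 weeks (log2 fold change 1.57 ± 0.218, adjusted p = 6.19e-06). Pcdhb14 (21.3 ± 2.49 against 9.33 ± 1.51 CPM, log2 fold change 1.19) and Pcdhga2 (14.2 ± 1.92 against 6.26 ± 1.22 CPM, log2 fold change 1.1801) also rose without overlap. The C-type member Pcdhgc3 fell (43.8 ± 6.698 against 61 ± 4.17 CPM, log2 fold change -0.48). Other synaptic adhesion genes were divided, 6 of 61 higher and 6 lower, or 7 and 4 without 5 months replicate 4.

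Microglia are the resident phagocytes of the brain, and complement tags synapses for them. Of 30 microglial genes 8 rose and 0 fell (median 0.16), and 7 of 23 genes of complement, MHC class I and interferon response rose with 0 lower. Itgam, a subunit of the complement receptor, stood at 13.5, 12.2, 12.9 and 11.1 CPM at 5 months and 5.35, 6.51, 4.96 and 6.41 CPM at 3 weeks (log2 fold change 1.09 ± 0.171, adjusted p = 3.05e-05). The protease Ctss had 46.7, 48.8, 57.2 and 42.97 CPM at 5 months and 24.96, 32.7, 25.2 and 27.7 CPM at 3 weeks (log2 fold change 0.82 ± 0.127, adjusted p = 3e-05). The complement gene C4b had 23.9, 20.4, 17.9 and 21.04 CPM at 5 months and 7.58, 6.23, 5.597 and 5.63 CPM at 3 weeks (log2 fold change 1.74 ± 0.1501, adjusted p = 2.28e-09). The peptide transporter Tap2 (5.16 ± 1.31 against 2.17 ± 0.493 CPM, log2 fold change 1.25) and its helper Tapbp (log2 fold change 0.71) of antigen presentation rose too. The 9 microglial markers summed to 184 to 219 CPM at 5 months and 132 to 198 CPM at 3 weeks, with 3 called higher, and these ranges overlap. The counts were again 8 and 7 without 5 months replicate 4, and without 3 weeks replicate 3 the microglial count was 5.

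Called nuclear and structured noncoding RNAs were nearly all higher at 5 months. Of 16 nuclear long noncoding RNAs 9 rose and 1 fell (median 0.58), and of 15 structured RNAs 6 rose and 0 fell (median 0.59). Malat1, which stays in nuclear speckles, stood at 1257, 812, 1074 and 4177 CPM at 5 months and 420.04, 489, 484 and 570.1 CPM at 3 weeks (log2 fold change 1.90 ± 0.486, adjusted p = 0.0193). Replicate 4 was far above the rest, yet each of the other 3 was above every juvenile one. Without it the log2 fold change of Malat1 was 1.09 (adjusted p = 2.67e-05). Meg3, an imprinted noncoding RNA, had 348, 272, 376 and 1133 CPM at 5 months and 66.1, 111, 116 and 148 CPM at 3 weeks (log2 fold change 2.27 ± 0.464, adjusted p = 0.00645), or 1.59 without that library (adjusted p = 0.000264). The log2 fold change of Miat went from 1.40 to 0.99 (adjusted p = 0.00315 and 0.00031), and Mir124a-1hg, the host of a neuronal miRNA and not on the list, from 2.40 to 1.80 (adjusted p = 0.000866 and 5.18e-06). Malat1 was not called without 3 weeks replicate 2 (edgeR adjusted p = 0.0538) or 3 (edgeR adjusted p = 0.0564), with nearly the same fold change. Without 5 months replicate 4, 6 long noncoding RNAs and 9 structured RNAs rose, and 5 long noncoding RNAs rose without 3 weeks replicate 2, 3 or 4. The vault RNA Vaultrc5 had 92.3, 99.5, 89.5 and 64.8 CPM at 5 months and 10.99, 19.8, 16.9 and 43.4 CPM at 3 weeks (log2 fold change 1.92 ± 0.358, adjusted p = 0.00384), and Rmrp, an RNA of ribosomal RNA processing, had 92.3, 91.2, 105 and 91.3 CPM at 5 months and 12.8, 34.9, 29.2 and 44.6 CPM at 3 weeks (log2 fold change 1.64 ± 0.3099, adjusted p = 0.00404), both without replicate 4 standing out upwards.

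Vessel gene calls also changed with this library. Of 22 endothelial and mural genes 6 rose and 1 fell, but without 5 months replicate 4 only 2 rose and 2 fell. Without 3 weeks replicate 2 or 3, 2 rose as well. Flt1, a receptor of vascular growth factor, had 5.41, 2.69, 3.67 and 15.7 CPM at 5 months and 2.57, 1.78, 2.63 and 2.46 CPM at 3 weeks (log2 fold change 1.56 ± 0.425, adjusted p = 0.0131), and 0.73 without replicate 4 (adjusted p = 0.0688). It was also not called without 3 weeks replicate 1 or 2. Kdr, another such receptor, had 2.16, 2.63, 2.05 and 2.59 CPM at 5 months and 1.182, 1.502, 0.876 and 1.02 CPM at 3 weeks (log2 fold change 1.04), with replicate 4 inside the range of the others, but it was not called without 3 weeks replicate 3 or 4 (edgeR adjusted p = 0.0849 and 0.0573) or with no filter on low counts (adjusted p = 0.0594).

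Genes were ranked by fold change after symbols of predicted genes, Rik clones, pseudogenes and bare identifiers were left out. Among the remaining genes called without overlap at a mean of at least 5 CPM in 1 group, the 3 highest log2 fold changes were those of genes of olfactory sensory neurons. These are not cortical cells but send axons to the olfactory bulb. Omp, olfactory marker protein, stood at 10.8, 9.42, 6.22 and 3.37 CPM at 5 months and 1.04, 0.668, 0.195 and 0.959 CPM at 3 weeks (log2 fold change 3.41 ± 0.379, adjusted p = 2.12e-06). S100a5, a calcium-binding protein of these cells, had 15.8, 13.6, 7.77 and 1.81 CPM at 5 months and 0.626, 1.001, 0.389 and 0.959 CPM at 3 weeks (log2 fold change 3.70 ± 0.669, adjusted p = 0.00309). Stoml3, a stomatin-like membrane protein, had 11.4, 9.1, 8.83 and 2.49 CPM at 5 months and 0.487, 1.45, 0.146 and 0.0599 CPM at 3 weeks (log2 fold change 3.87 ± 0.656, adjusted p = 0.00151). In all 3, replicate 4 was the lowest adult library, and without it the log2 fold changes were 3.67, 4.06 and 4.18. Of 18 tested olfactory genes 5 rose and 0 fell, and 8 of the 19 tested without replicate 4 rose. Without 5 months replicate 3 or 3 weeks replicate 3, 3 rose. The labels name cerebral cortex, and tissue taken up with it was not tested.

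**Figure D5:**
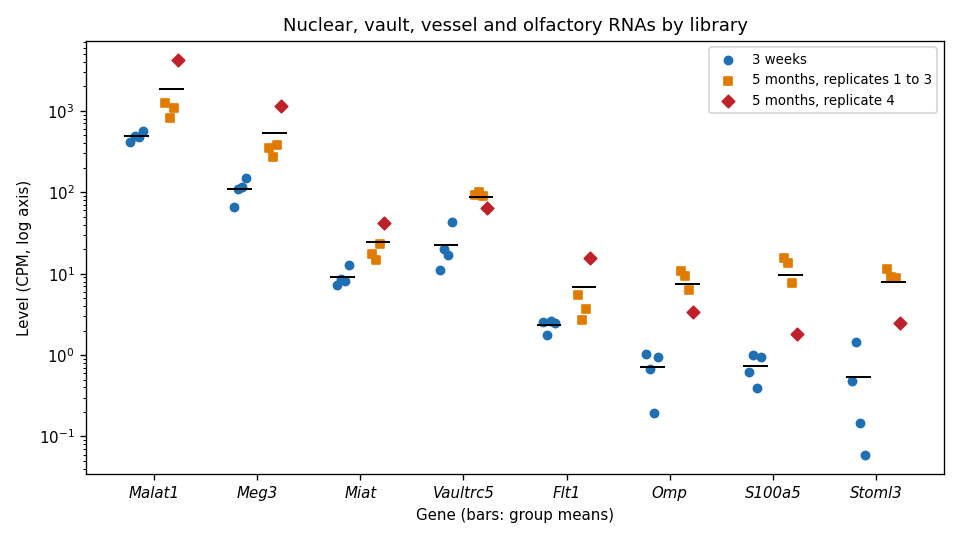
Levels (CPM, log axis) of 8 genes in each of the 8 libraries: 3 nuclear RNAs, a vault RNA, a vessel gene and 3 olfactory genes. Blue circles are 3 weeks, orange squares 5 months replicates 1 to 3, and the red diamond is 5 months replicate 4, which is highest for Malat1, Meg3, Miat and Flt1 and lowest of the adult libraries for Vaultrc5, Omp, S100a5 and Stoml3.

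Beyond the lists, the 12 highest genes of the same ranking also held Chdh, choline dehydrogenase of mitochondria (5.72 ± 1.696 against 0.994 ± 0.3297 CPM, log2 fold change 2.53). They also held the lipid transporter Abca8a (7.05 ± 1.58 against 1.35 ± 0.258 CPM, log2 fold change 2.38), Txlnb (7.45 ± 2.298 against 1.58 ± 0.486 CPM, log2 fold change 2.25) and the noncoding Lncpint (23.1 ± 3.73 against 5.89 ± 1.05 CPM, log2 fold change 1.98). Lin28b, a blocker of let-7 miRNA maturation known from embryonic tissue, was higher in the adult, at 10.1, 5.896, 11.5 and 9.796 CPM against 3.06, 3.004, 1.801 and 3.06 CPM (log2 fold change 1.78 ± 0.222, adjusted p = 1.2e-06). Among RNA-binding proteins Khdrbs3, a regulator of neurexin splicing, rose (145 ± 9.81 against 87.95 ± 17.95 CPM, log2 fold change 0.73) and Ybx1 fell (33.7 ± 2.89 against 61.3 ± 13.6 CPM, log2 fold change -0.86). Cdr1 was among the 12 lowest (12.6, 25.4, 17.7 and 13.9 CPM at 5 months and 71.2, 128, 136 and 29.1 CPM at 3 weeks, log2 fold change -2.39 ± 0.494, adjusted p = 0.00682), but it lies opposite a circular RNA and the strand setting of the counts is unknown here, so that transcript and this gene cannot be told apart. Of 39 excitatory neuron and layer markers 8 fell and 1 rose, or 9 and 1 without 5 months replicate 4. Those that fell include Calb1 (22.2 ± 3.73 against 39.9 ± 3.56 CPM, log2 fold change -0.84) and Bcl11a (log2 fold change -0.51). Called genes also differed in length: of the 3069 longest genes 19.8% were higher and 11.01% lower, of the 3069 shortest 11.8% and 11.1%. Longer genes gather more counts, and the part of this in the shares was not tested.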

How the data were processed

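The authors deposited whole-number read counts per gene, with the gene length in bases, in 1 table of 16 libraries. Per the submitters' processing notes, the tools were bcl2fastq 2.20.0.422, cutadapt 1.18, Trimmomatic 0.38 and featureCounts of Subread, on GRCm38.p6. Neither aligner nor strand setting is known from these sources, and the kit is a stranded one per the labels. Column names were matched to sample titles by age, fraction and number. The authors also deposited LeafCutter p-values with the fitted usage of each intron as a fraction, and DIEGO p-values and q-values. Their depth is unknown.

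After TMM scaling, counts entered the quasi-likelihood test of edgeR 4.0.16 (R 4.3.3, glmQLFit robust, glmQLFTest) over the 12 synaptosome libraries, which share 1 dispersion, after filterByExpr by group. P-values were adjusted by Benjamini-Hochberg over the 15344 genes tested, with a threshold of 0.05. CPM is per TMM-scaled library. The script was tested on simulated data. Errors of levels are SD over 4 libraries. The SE of a log2 fold change is its absolute value divided by the square root of the F statistic of its test. Labels of 4 against 4 allow an exact two-sided permutation p of 0.0286 at the smallest. No 2 libraries of a group were copies, with a chi-square per degree of freedom of at least 7.08. Principal components used log2 CPM with a prior count of 2.

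The comparison and its gene lists were chosen with earlier results of these data known, and some lists overlap. The text takes its genes from these: the 12 highest and 12 lowest fold changes among called genes without overlap, at a mean of at least 5 CPM in 1 group. Symbols of Gm plus digits, those ending in Rik or -ps and bare identifiers were left out of this ranking. The text adds the 3 smallest adjusted p each way per list, a list of developmental genes, and the 8 genes with the smallest LeafCutter adjusted p. Cspg4, Pdgfra, the cassette exons and any other gene outside this rule were chosen after their values were seen. A few members are not reported here. Coordinates are those of GENCODE vM21 on GRCm38. The alternatives were other scalings, filters, tests, sets of libraries, a replicate block and leaving out each library.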

Additional observations from a re-analysis of the deposited data

Results flagged for a closer look

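For each gene named above and for the library measures, the lowest or highest of the 4 libraries of an age was compared with its nearest neighbour by Dixon's test. Of 268 groups 20 passed its 95% limit, or 7.46%, where chance gives about 1 in 20. The others of each group are given as their lowest and highest value.

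In 5 months replicate 4 Malat1 stood at 4177 CPM against 812 to 1257 in the others, and Meg3 at 1133 CPM against 272 to 376. The same library was low for Pclo, at 1742 CPM against 2119 to 2154, and for Sipa1l1, at 526 CPM against 624 to 635. In 3 weeks replicate 1 genes of the sheath were low: Cldn11 at 65.4 CPM against 132 to 136, Mag at 174 CPM against 256 to 262 and Ndrg1 at 17.1 CPM against 26.2 to 28.0. That library was also low for Col1a2 (25.2 CPM against 36.9 to 37.8) and high for Top2a (7.02 CPM against 4.33 to 4.62) and Ybx1 (81.5 CPM against 51.6 to 56.2).

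In 5 months replicate 1 Anln was low (18.4 CPM against 21.9 to 22.6), as was Cldn11 (11.4 CPM against 15.8 to 16.1). Nrgn was high there (289 CPM against 247 to 252), and so was mt-Nd6 (774 CPM against 573 to 585). In 3 weeks replicate 4 Gpr17 was high (147 CPM against 110.4 to 116), and so was Nr4a2 (46.5 CPM against 33.2 to 34.3). In 3 weeks replicate 3 Mbp was high (2892 CPM against 2041 to 2162) and Lin28b low (1.80 CPM against 3.00 to 3.06). In 5 months replicate 3 Rmrp (105 CPM against 91.2 to 92.3) and Tnc (3.89 CPM against 2.98 to 3.11) were high.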

How the results depend on the processing

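The labels state no pairing of samples by replicate number. The deviations of same-numbered libraries correlated at 0.066, 0.024, 0.006 and -0.006, and those of differently numbered libraries at -0.069 to 0.062. Correlations over so few libraries cannot settle whether samples with the same number were handled together. With the replicate block 2144 genes were higher and 1926 lower, and the exact p of the mitochondrial rRNA share was 0.125. Testing for a fold above 1.5 left 186 higher and 169 lower. It left 7 of the precursor list, 13 of axon growth, 5 of the cell cycle, 2 of cholesterol synthesis, 1 of microglia, 0 of the postsynaptic density, 2 dendritic, 8 protocadherin, 0 nuclear long noncoding, 0 vessel and 3 olfactory members. With only the 8 libraries compared, 5 nuclear long noncoding RNAs were higher and Malat1 was not called (adjusted p = 0.0612), nor was Kdr without a filter on low counts or Slc12a2 with all 16 libraries. Leaving out 1 library gave 1433 to 2085 genes higher, 1261 to 1812 lower and a mitochondrial rRNA difference of -9.65 to -6.07 points. The ranges for the lists were 19 to 22 myelin, 13 to 15 precursor, 26 to 29 axon growth, 10 to 12 cell cycle, 6 to 12 cholesterol, 5 to 8 microglial, 12 to 17 postsynaptic density, 8 to 14 dendritic, 22 to 25 protocadherin, 5 to 10 nuclear, 2 to 7 vessel and 3 to 8 olfactory members. Of the 3773 calls, 0 turned to the opposite direction in any setting. The log2 fold changes that changed sign belong to uncalled genes. Leaving out 1 library put Dlg4 between -0.0581 and 0.0493 and Grin2b between -0.0573 and 0.0621. Grin2b was at 0.0021 with DESeq2 size factors, 0.0152 with upper-quartile scaling, 0.0018 with the 1 CPM filter, 0.0073 with 8 libraries and 0.0021 with DESeq2's Wald test. Of the authors' deposited LeafCutter clusters, 85 passed at an adjusted p under 0.01 and 0 DIEGO junctions at a q under 0.01. The cause of these changes was not tested.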
